A study of Mus musculus with 10 samples.

Results

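The sarcomeric myosin heavy chains are the motor subunits of the thick filament, and 7 of their genes were followed here: Myh1, Myh2, Myh3, Myh4, Myh7, Myh7b and Myh8. They were taken by symbol from the Ensembl identifiers of the count files, and all 7 were found among 43629 genes, of which 42462 had a symbol. The libraries hold either all RNA of mouse skeletal muscle (total RNA) or the RNA pulled down by immunoprecipitation (IP) of IMP2, an RNA-binding protein whose gene is Igf2bp2. The 10 libraries were 3 of knockout (KO) total RNA, 3 of wild-type (WT) total RNA, 2 of KO IP and 2 of WT IP. All came from male C57BL/6 mice aged 6 weeks that had been on a high-fat diet for 2 weeks. The KO carries "IMP2 null" as its genotype label, while the series design speaks of a knockout specific to muscle; the promoter driving any recombinase, the deleted part of Igf2bp2, the muscle sampled and the number of animals are not given in the sources used here. Replicates are separate libraries, so the p-values measure the spread between libraries, which may be technical.

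A myosin heavy chain sets how fast a muscle fibre hydrolyses ATP and shortens, and adult fibres are classed by the isoform they hold. Myh4 encodes the isoform of type IIB fibres, the fastest in mouse, Myh1 that of type IIX fibres, Myh2 that of type IIA fibres and Myh7 that of slow type I fibres. Myh3 (embryonic) and Myh8 (neonatal) are used in developing and regenerating fibres, and Myh7b is a divergent slow-type gene that hosts the microRNA gene Mir499. In bulk tissue, fewer fibres of a type and less transcript per fibre cannot be told apart.

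On the GRCm38 build, 5 of the genes lie in a row on the plus strand of chromosome 11, in the order Myh3, Myh2, Myh1, Myh4 and Myh8, over 230.335 kb from chr11:67078300 to chr11:67308634. The 3 adult fast genes Myh2, Myh1 and Myh4 fill 89.42 kb of it. Myh7 lies on the minus strand at chr14:54970684-54994626 and Myh7b on the plus strand at chr2:155611212-155634307. Promoter sequences (RefSeq, GRCm38.p6) were matched for all 7 genes. The longest run of bases common to the 250 bases before the annotated starts of Myh1, Myh2, Myh4 and Myh8 is shown to let the reader see how alike these neighbours are at their starts. Each line gives 100 bases of the plus strand, 5′ to 3′, with the 14 shared bases in capitals.
Myh4: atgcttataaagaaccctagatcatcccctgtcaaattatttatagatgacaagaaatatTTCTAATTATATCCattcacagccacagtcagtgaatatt
Myh1: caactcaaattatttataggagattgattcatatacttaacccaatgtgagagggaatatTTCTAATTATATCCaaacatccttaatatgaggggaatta
Myh2: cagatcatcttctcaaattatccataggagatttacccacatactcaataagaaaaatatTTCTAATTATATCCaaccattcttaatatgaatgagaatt
Myh8: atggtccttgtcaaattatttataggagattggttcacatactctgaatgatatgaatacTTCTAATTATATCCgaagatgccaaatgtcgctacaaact

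These stretches are chr11:67237594-67237693 for Myh4, chr11:67199882-67199981 for Myh1, chr11:67170842-67170941 for Myh2 and chr11:67277010-67277109 for Myh8. The shared run begins 158 bases before the RefSeq start of Myh4, 160 before that of Myh1, 125 before that of Myh2 and 54 before that of Myh8. Searched on both strands, the run was found in 4 of 32851 promoter windows (0.0122%), namely those of these 4 genes, from which it was taken. It was not found in these windows of Myh3, Myh7 or Myh7b. An E-box (CANNTG, the same on both strands), the letters read by myogenic regulators such as MyoD, occurred 2 times before Myh4, 1 time each before Myh8, Myh3, Myh7 and Myh7b, and not before Myh1 or Myh2, while 66.2% of all promoter windows hold at least 1.

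The genes also share transcript sequence, which bears on how reads could be assigned. The longest coding transcripts of Myh1 and Myh2 were 90.0% identical when aligned, those of Myh1 and Myh4 89.4%, and those of Myh7b and Myh8 68.8%, the lowest of the pairs. Of the 50-base windows of each transcript, 67.9% were found in no other gene's transcripts for Myh1, 71.1% for Myh2, 71.8% for Myh7, 78.6% for Myh8, 81.1% for Myh4, 95.2% for Myh3 and 100% for Myh7b. Myh1 and Myh2 had 19.7% of their windows in common. For Myh7, 28.2% of windows occurred in transcripts of genes outside the 7. Windows were sought on both strands, so those under an antisense gene at the same place count as shared, though reads there can map uniquely. Reads that did not map uniquely were 26.1% to 43.3% of all reads of a library. How many came from these genes was not measured, so levels of Myh1, Myh2 and Myh7 carry an uncertainty of unknown size. Antisense genes overlap exons of Myh2 (9430073C21Rik, 237 bases), Myh1 (Myhas, 515 bases) and Myh7 (Mhrt, 484 bases), and with the strand setting of the counting not given, reads of such a pair cannot be told apart there.

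Gene counts per library were 9691580 to 10739792 in KO total RNA, 12299030 to 14809788 in WT total RNA, 917462 and 4037480 in KO IP, and 2159115 and 2547124 in WT IP. A count of 3, taken as the floor, was worth 0.203 to 0.310 CPM (counts per 1000000 gene counts) in total RNA and 0.743 to 3.27 CPM in IP before scaling. Skeletal muscle markers (Acta1, Ckm, Mb, Des, Ttn and Neb) summed to 87722 to 124253 CPM in KO total RNA and 49811 to 93288 CPM in WT total RNA. Cardiac markers summed to at most 8.80 CPM in any library, with Myl7 at 0 counts throughout. KO total RNA library 1 held 2258 CPM of pancreatic islet markers, where each of the others of total RNA held 1.00 CPM or less, and WT total RNA library 2 held 225 CPM of Ucp1, the brown fat uncoupling protein. Islet markers also summed to 133 and 351 CPM in KO IP and to 40.8 and 319 CPM in WT IP, and Ucp1 was at 42.3 and 20.1 CPM in KO IP and 7.15 and 68.6 CPM in WT IP. The targeted gene Igf2bp2 was at 2.52, 1.88 and 2.47 CPM in KO total RNA (21, 19 and 21 counts), against 2.51, 2.86 and 3.35 CPM in WT total RNA (35, 37 and 48 counts), a log2 difference of -0.36 ± 0.28 (SE; edgeR, adjusted p = 0.897). Counts of the whole gene check a label only where the deleted part is transcribed, and that part is not given in the sources used here.

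Muscle of both genotypes was dominated by fast myosin transcripts. Per kilobase of exon, the order was Myh4 over Myh1 over Myh2 in each of the 10 libraries. In KO total RNA, Myh4 averaged 11644 ± 1078 CPM per kilobase, Myh1 2090 ± 531 and Myh2 87.0 ± 5.59, and in WT total RNA Myh4 averaged 8378 ± 2470, Myh1 1951 ± 727 and Myh2 144 ± 26.8 (SD, n = 3 each). The other 4 genes averaged 0.957 to 4.31 CPM per kilobase in KO total RNA and 0.929 to 4.86 in WT total RNA. Their order changed from library to library, so neighbours among them did not differ beyond their spread. The lengths used are those of all annotated exons of a gene. For Myh8 this is 11772 bases, against 6149 in its longest coding transcript, and for Myh7 8616 against 6230. Levels of Myh8 and Myh7 per kilobase are therefore lower than with transcript lengths, and the order depends on this choice. The 7 genes together took 7.26 ± 0.844% of all gene counts in KO total RNA and 6.31 ± 1.16% in WT total RNA (SD, n = 3 each), with an exact two-sided permutation p of 0.5. The smallest p this exact permutation test can give with 3 against 3 libraries is 0.1.

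**Figure D1:**
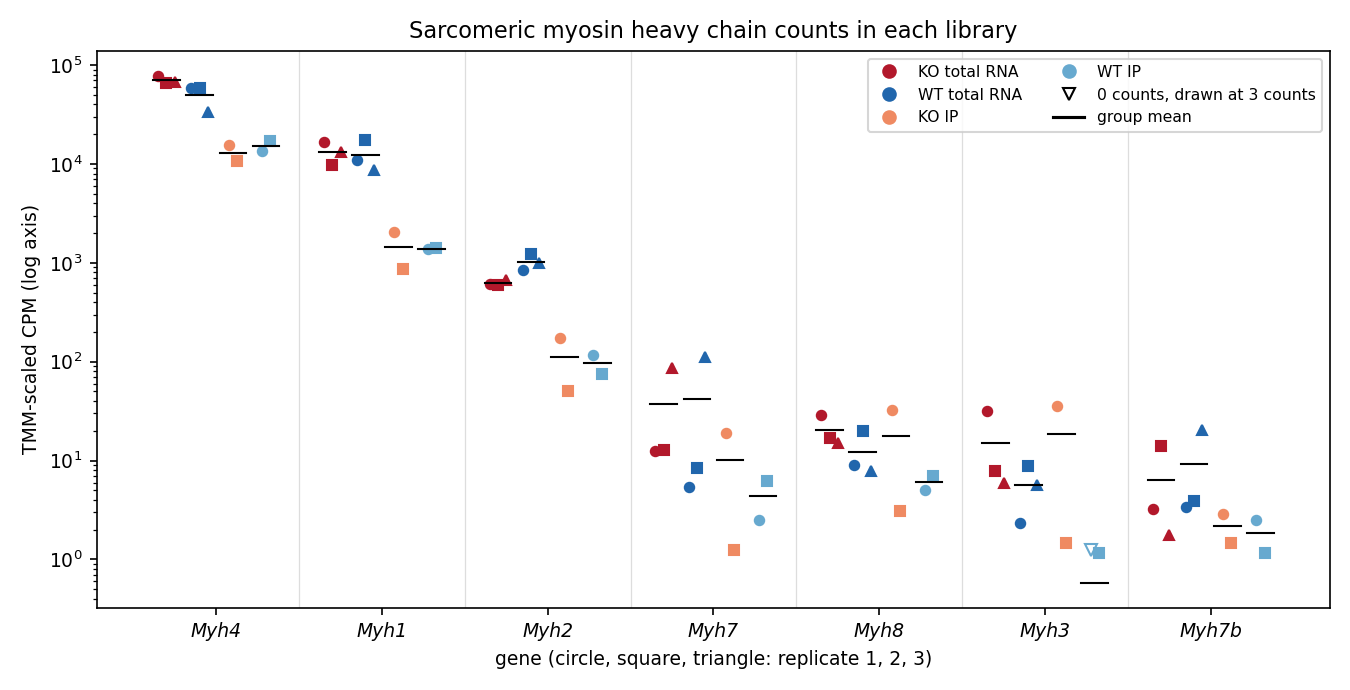
TMM-scaled CPM (log axis, not corrected for gene length) of the 7 myosin heavy chains in KO total RNA, WT total RNA, KO IP and WT IP, with a point per library and a bar at each group's mean; an open triangle marks a library with 0 counts, drawn at the floor of 3 counts. Myh4, Myh1 and Myh2 lie above 500 CPM in every total RNA library, and the other 4 genes at 1.76 to 112 CPM.

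No myosin heavy chain passed the test between KO and WT total RNA, and Myh2 was the member with the smallest p. Of 13169 genes tested, 0 (0%) had an adjusted p under 0.05 (edgeR quasi-likelihood test, Benjamini-Hochberg), and 569 (4.32%) had an unadjusted p under 0.05. DESeq2 called 5 genes, Bdh1, Cish, Prg4, Scg3 and Slc15a2, and 0 of the 6 members it gave an adjusted p. All 7 members passed the filter on low counts. Log2 differences were positive for 4 and negative for 3, with a median of 0.09, against -0.01 over all genes tested. Without KO library 1 and WT library 2, the libraries with islet markers and Ucp1, the differences were 0.53 for Myh4, 0.25 for Myh1, -0.56 for Myh2, -0.26 for Myh7, -0.58 for Myh7b, 0.77 for Myh3 and 0.93 for Myh8, and none was called (edgeR, adjusted p = 0.720 or higher).

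Myh2, the type IIA myosin, was at 604, 593 and 667 CPM in KO total RNA, against 855, 1234 and 1003 CPM in WT total RNA. Each KO library lay below every WT library, which 4.85% of all genes tested showed in the same direction. The log2 difference was -0.74 ± 0.19 (SE), or 1.67-fold lower in KO, with an unadjusted p of 0.00348 and an adjusted p of 0.897 (edgeR). By p it ranked 17 of 13169. Leaving out a library in turn gave -0.86 to -0.57, and the value without KO library 1 and WT library 2 together had an unadjusted p of 0.0669. Markers of adipocytes (Adipoq, Lep, Plin1, Cidec, Fabp4 and Ucp1) summed to 290 to 486 CPM in KO total RNA and 389 to 977 CPM in WT total RNA. Differences were negative for 5 of the 5 tested, with a median of -0.68 and 0 called, and a median of 0.03 without those 2 libraries. Their part in the Myh2 values was not tested. The antisense gene 9430073C21Rik, whose exons overlap those of Myh2, was also lower in each KO library. It was at 3.72, 4.55 and 2.70 CPM in KO total RNA (31, 46 and 23 counts). In WT total RNA it was at 5.16, 7.41 and 15.7 CPM (72, 96 and 225 counts). Its log2 difference was -1.37 ± 0.42 (SE, edgeR, adjusted p = 0.897), and -0.76 without WT library 3. Myhas, the antisense gene over Myh1, had a log2 difference of -0.10 ± 0.20 (SE, edgeR, adjusted p = 0.939), and its groups overlapped.

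Myh4, the type IIB myosin, was at 77459, 65386 and 67307 CPM in KO total RNA, against 58615, 59346 and 33249 CPM in WT total RNA. With TMM scaling, every KO library lay above every WT library, as for 4.76% of all genes tested. As a percentage of all gene counts the groups overlapped, with 6.65%, 6.19% and 5.34% in KO and 5.53%, 5.52% and 3.87% in WT. WT library 3 stood far below the other WT libraries. The log2 difference was 0.47 ± 0.30 (SE, edgeR, adjusted p = 0.897) with all libraries. It was 0.25 without WT library 3 and 0.28 with scaling by library size alone. Myh1, the type IIX myosin, was at 16615, 9874 and 13344 CPM in KO total RNA, against 10873, 17579 and 8729 CPM in WT total RNA. Its groups overlapped, its log2 difference was 0.09 ± 0.32, and the sign turned without KO library 1 (-0.10), without WT library 3 (-0.10) and with scaling by library size alone (-0.10).

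The make-up of the adult myosin pool does not depend on the scaling between libraries, since each share is taken within a library. Myh4 made up 82.7%, 86.9% and 83.5% of the summed counts per kilobase of Myh4, Myh1, Myh2 and Myh7 in KO total RNA, against 84.2%, 77.0% and 78.3% in WT total RNA. Myh1 made up 16.8%, 12.4% and 15.7% in KO, against 14.8%, 21.6% and 19.5% in WT. Both sets overlapped between genotypes, with differences of 4.51 and -3.66 percentage points (exact two-sided permutation p = 0.3 each, adjusted 0.5 over 5 shares). Leaving out a library in turn gave 3.11 to 6.68 points for Myh4 and -5.58 (without WT library 1) to -2.17 (without WT library 2) for Myh1, which was also at -2.39 without KO library 2. Without KO library 1 and WT library 2 together the differences were 3.96 and -3.08 points (exact permutation p = 0.667 each). With the 2 libraries a group left there, the smallest p this exact permutation test can give is 0.333. Myh2 made up 0.543%, 0.664% and 0.698% in KO, against 1.03%, 1.35% and 1.99% in WT. Its share was below every WT share in all 3 KO libraries, with a difference of -0.824 percentage points and an exact permutation p of 0.1, the smallest possible, adjusted to 0.5. The log2 ratio of Myh2 to Myh4 per kilobase was -7.25, -7.03 and -6.90 in KO and -6.35, -5.83 and -5.30 in WT. Wilson 95% intervals of the shares in raw counts were at most 0.105 percentage points to either side in total RNA and 0.481 in IP, and like the floor they cover counting error only.

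**Figure D2:**
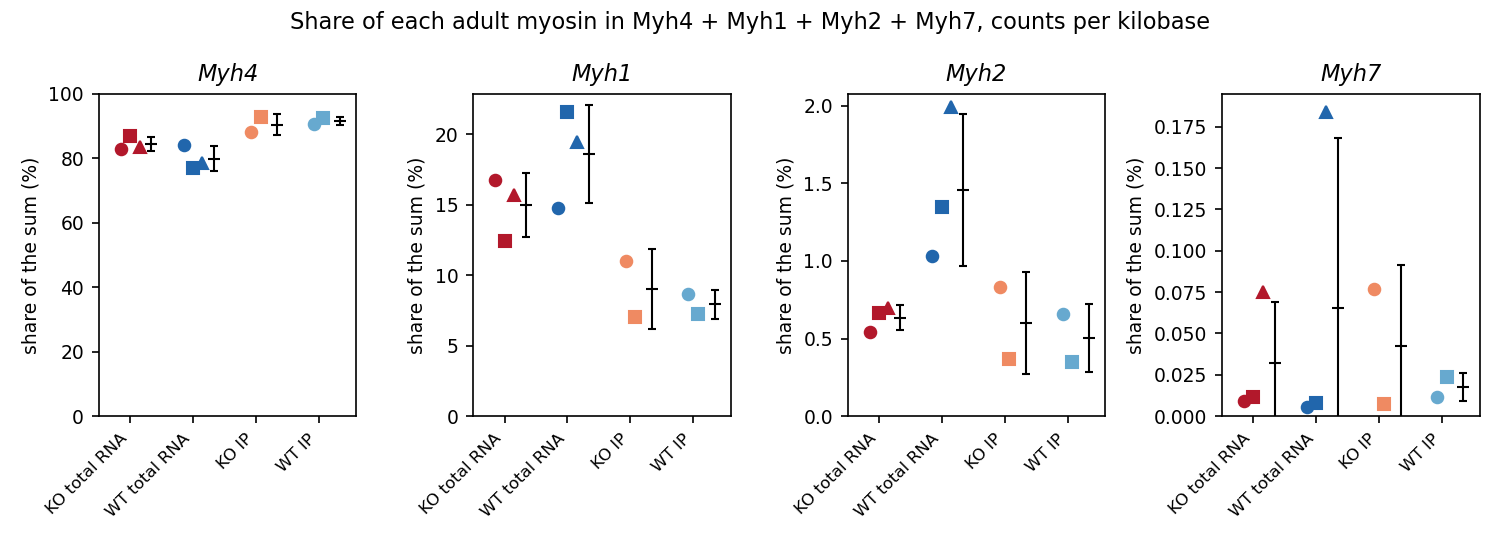
Share (%, linear axes from 0) of Myh4, Myh1, Myh2 and Myh7 in their summed counts per kilobase, with a point per library (circle, square and triangle for replicates 1, 2 and 3) and mean ± SD in black, cut at 0. The 3 KO total RNA points of Myh2 (0.543% to 0.698%) lie below the 3 of WT (1.03% to 1.99%), while the highest Myh7 points are those of library 3 in each genotype of total RNA.

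Myh7, the slow myosin, was low in every library. It was at 12.5, 12.7 and 86.3 CPM in KO total RNA, against 5.37, 8.49 and 112 CPM in WT total RNA. Library 3 of each genotype stood high, and the groups overlapped. The log2 difference of -0.19 ± 1.10 (SE; edgeR, adjusted p = 0.975) became 2.43 without WT library 3 (unadjusted p = 0.0218, adjusted p = 0.9995), -1.73 without KO library 3, 0.22 without KO library 1 and 0.23 without KO library 2. Without libraries 3 of both genotypes, an alternative added after seeing the data, it was 0.86 (edgeR, unadjusted p = 0.0116, adjusted p = 0.788). Its share of the adult pool averaged 0.0320 ± 0.0371% in KO and 0.0657 ± 0.102% in WT (SD, n = 3 each). The difference in share of -0.0338 percentage points (exact permutation p = 1) turned to 0.0254 without WT library 3.

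Of the 10 slow-fibre genes listed beside the members, 7 were highest in library 3 of both genotypes of total RNA, as Myh7 was. The others were Casq2 and Myoz2, which were lowest in WT library 3, and Pln, which was lowest in KO library 3. Over the 6 total RNA libraries and 9603 genes with at least 5 CPM, the patterns nearest to Myh7 were those of Tnnc1 (slow and cardiac troponin C, a root mean square distance of 0.36 in centred log2 CPM), n-R5-8s1 (0.60), Myl2 (slow and ventricular regulatory light chain, 0.60), Tnnt1 (slow troponin T, 0.66) and Tnni1 (slow troponin I, 0.71). Tnnc1 was at 4.32, 6.43 and 31.5 CPM in KO total RNA, against 2.72, 3.78 and 28.5 CPM in WT total RNA. The 10 listed genes summed to 267 to 534 CPM in KO and 217 to 491 CPM in WT, with positive log2 differences for 6 of 10, a median of 0.09 and 0 called. Myh6, the cardiac alpha myosin beside Myh7 in the genome, reached at most 7.61 CPM in total RNA.

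**Figure D3:**
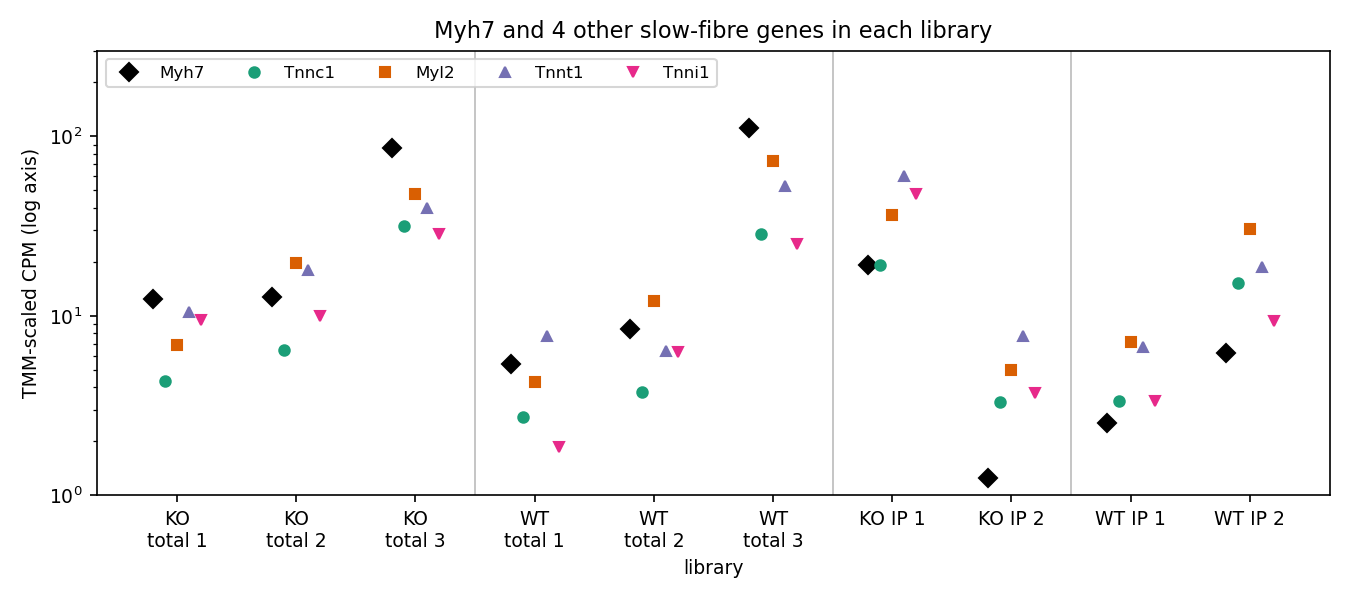
TMM-scaled CPM (log axis) of Myh7 and of Tnnc1, Myl2, Tnnt1 and Tnni1 in each of the 10 libraries. In total RNA all 5 genes are highest in library 3 of each genotype (Myh7 at 86.3 CPM in KO and 112 CPM in WT), and in IP all 5 are highest in KO library 1 (Myh7 at 19.2 CPM).

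The developmental myosins were low in every library, with the highest total RNA values in KO library 1. Myh3, the embryonic isoform, was at 31.5, 7.81 and 5.99 CPM in KO total RNA (262, 79 and 51 counts), against 2.36, 8.80 and 5.72 CPM in WT total RNA (33, 114 and 82 counts). Its groups overlapped, and the log2 difference of 1.40 ± 0.64 (SE; edgeR, unadjusted p = 0.0549, adjusted p = 0.897) was 0.30 without KO library 1. Myh8, the neonatal isoform, was at 28.6, 17.0 and 15.03 CPM in KO, against 8.95, 20.1 and 7.89 CPM in WT. Its groups overlapped as well, and its log2 difference of 0.71 ± 0.37 (adjusted p = 0.897) ranged from 0.38 without KO library 1 to 1.27 without WT library 2. KO library 1 is the library with islet markers, and the part of those in its Myh3 and Myh8 values was not tested.

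Genes of muscle development and regeneration, listed beside the members, had positive log2 differences in KO total RNA for 12 of 12 tested of 14, with a median of 0.46 and 0 called. With scaling by library size alone 8 of 12 were positive. The smallest p-values were those of Myl4 (embryonic and atrial essential light chain), with a log2 difference of 1.34 ± 0.32, Actc1 (cardiac and fetal actin, 0.99 ± 0.27), Myod1 (the myogenic regulator MyoD, 0.64 ± 0.18) and Mymk (the fusion protein myomaker, 1.59 ± 0.67; SE, edgeR, adjusted p = 0.897 each). Without WT library 2 the Mymk difference was 2.89, and without WT library 1 it was 1.05. Without KO library 1 and WT library 2 together 11 of the 12 were positive, with a median of 0.57. Mymk was at 7.45, 8.90 and 7.28 CPM in KO, against 0.286, 5.79 and 1.81 CPM in WT. Of the 12 fast-fibre genes, the partners of Myh4, 12 had positive differences, with a median of 0.55 and 0 called; without libraries 3 of both genotypes the count was 10 and the median 0.20, and without KO library 1 and WT library 2 it was 12 and 0.65.

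Myh7b was at 3.24, 14.0 and 1.76 CPM in KO total RNA, against 3.37, 3.86 and 20.6 CPM in WT total RNA. KO library 2 and WT library 3 stood high, the groups overlapped, and the log2 difference of -0.54 ± 0.83 (SE; edgeR, adjusted p = 0.921) became 0.85 without WT library 3 and -1.90 without KO library 2. Myh6 was also highest in KO library 2 (7.61 CPM) and WT library 3 (4.47 CPM). The nearest patterns were those of Col24a1, Firre, Zfc3h1, Neat1 and Map4k2 (distances of 0.55 to 0.67), of which Firre and Neat1 are nuclear long noncoding RNAs.

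By the same measure, the genes nearest to Myh4 were Trdn, Chpf, Mmp14, Atp2a1 and Klhl13, at 0.05 to 0.06. Trdn encodes triadin and Atp2a1 the calcium pump of fast fibres, both of the sarcoplasmic reticulum. Nearest to Myh1 were Sdc4, Foxn3, Rom1, Hspb6 and Arhgap35 (0.13 to 0.16), and nearest to Myh2 were Pex6, Coasy, Aifm2, Dgat2 and Anxa4 (0.11 to 0.17). Nearest to Myh3 were Fos, Abcc8, Myh8, Egr1 and Tnnt2 (0.63 to 0.75), and nearest to Myh8 were Npr3, Gadl1, Ttc28, Gdf11 and Auts2 (0.25 to 0.32). These distances are descriptions over 6 libraries, and genes with little spread are near to many others.

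Transcripts of the adult fast myosins were scarcer in the IP than in total RNA in both genotypes. The 7 genes took 1.69 ± 0.440% of gene counts in KO IP and 1.77 ± 0.149% in WT IP (SD, n = 2 each), against 5.03% to 8.14% in the total RNA libraries. All 10 libraries were fitted together, and 5251 of 14399 genes were called between IP and total RNA in KO (36.5%; 18.8% lower) and 5325 in WT (37%; 19.4% lower). Of the 7 members, 3 fell in KO and 3 fell in WT, in each case Myh1, Myh2 and Myh4. The median log2 difference of the members was -2.43 in KO and -3.16 in WT, against 0.03 and -0.05 over all genes tested.

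Markers of muscle cell types also differed between IP and total RNA. The 6 skeletal muscle markers summed to 39617 and 50634 CPM in KO IP and 57446 and 65441 CPM in WT IP. In KO 4 of them fell (Neb, Ttn, Ckm and Acta1; median -1.41), and in WT 3 fell (Neb, Ttn and Ckm) and Des rose (median -0.55). The call of Acta1 in KO was lost without KO total RNA library 1 or 3 or either KO IP library (edgeR, adjusted p = 0.0606 to 0.211). The call of Ckm in WT was lost with the replicate block (0.0788), with DESeq2 size factors (0.0559) and in 7 fits without a library (0.0516 to 0.189). The smooth muscle markers Acta2, Myh11, Tagln and Cnn1 summed to 287 and 289 CPM in KO IP and 348 and 398 CPM in WT IP, against 122 to 211 CPM in KO total RNA and 102 to 149 CPM in WT total RNA. Of these, 3 rose in KO (median 0.89), or 1 without KO IP library 2, and 4 in WT (median 1.87). The part of these markers in the values of the members was not tested.

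Myh4 was at 15378 and 10667 CPM in KO IP, against 65386 to 77459 CPM in KO total RNA, a log2 difference of -2.43 ± 0.37 (SE; edgeR, adjusted p = 0.000236). In WT it was at 13577 and 17064 CPM in IP, against 33249 to 59346 CPM in total RNA, a log2 difference of -1.72 ± 0.36 (adjusted p = 0.00198). No IP library overlapped the total RNA libraries of its genotype, but the share of all genes with such a gap is not given here. Of all genes, 36.5% were called in KO and 37% in WT. Myh1 was at 2034 and 858 CPM in KO IP and 1369 and 1409 CPM in WT IP. It fell by 3.20 ± 0.44 on the log2 scale in KO (adjusted p = 0.00011) and by 3.16 ± 0.44 in WT (adjusted p = 0.000114). Myh2 was at 172 and 50.4 CPM in KO IP and 117 and 76.0 CPM in WT IP. Its log2 differences were -2.54 ± 0.41 in KO (adjusted p = 0.000374) and -3.42 ± 0.43 in WT (adjusted p = 5.45e-05). Leaving out a library in turn gave -3.63 (without KO IP library 1) to -1.87 (without KO IP library 2) for Myh2 in KO, and -3.96 to -2.72 without the same libraries for Myh1 in KO. The 6 calls held in every alternative run, with the highest adjusted p of 0.0307 for Myh4 in WT without WT IP library 1.

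**Figure D4:**
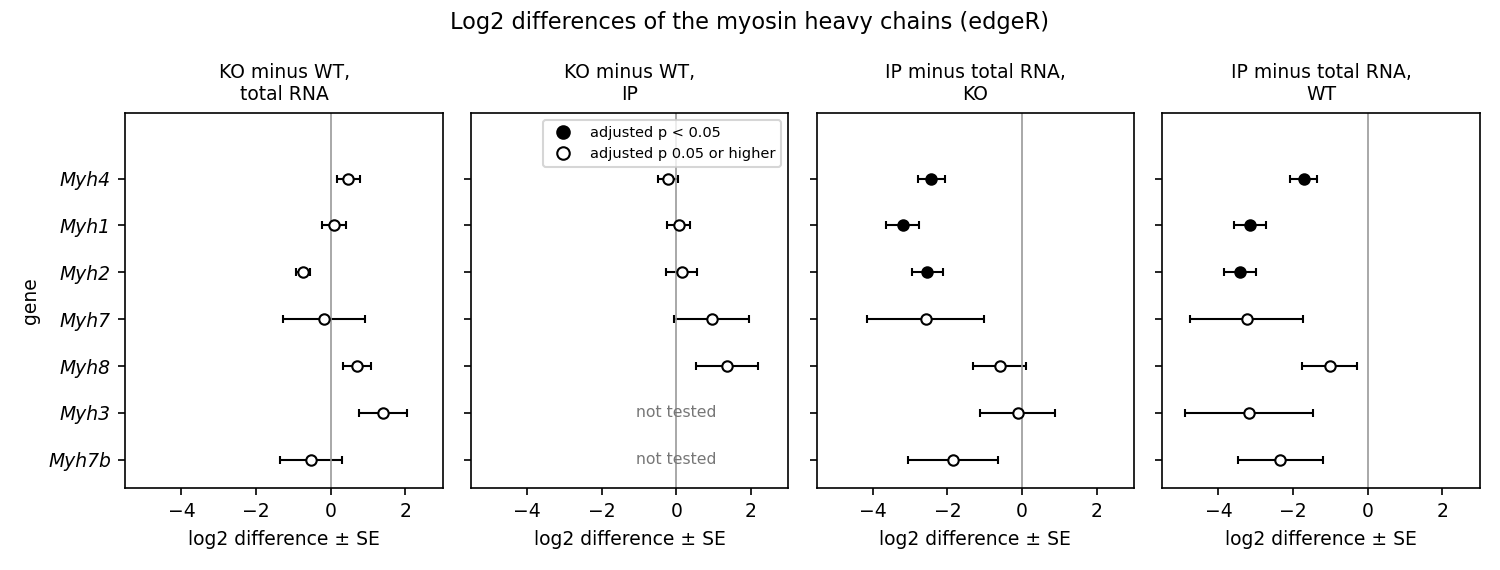
Log2 differences ± SE from edgeR of the 7 members for KO minus WT in total RNA, KO minus WT in IP, IP minus total RNA in KO and IP minus total RNA in WT; filled points have an adjusted p under 0.05. Filled points are those of Myh4, Myh1 and Myh2 in the IP minus total RNA panels, between -3.42 and -1.72.

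Within the IP, the adult pool was again mostly Myh4, which made up 88.1% and 92.6% in KO IP and 90.7% and 92.4% in WT IP. Myh1 made up 11.03% and 7.05% in KO IP and 8.66% and 7.22% in WT IP, below each of its total RNA shares. Myh2 made up 0.830% and 0.369% in KO IP and 0.658% and 0.347% in WT IP. With 2 libraries a group, no test of the shares was run in IP.

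With the filter on low counts and all 10 libraries, the 4 members at low level were not called between IP and total RNA. Their counts in KO IP were 20 and 6 for Myh7, 34 and 15 for Myh8, 37 and 7 for Myh3, and 3 and 7 for Myh7b. In WT IP the counts were 6 and 16 for Myh7, 12 and 18 for Myh8, 0 and 3 for Myh3, and 6 and 3 for Myh7b. Log2 differences were -2.58 ± 1.56 in KO and -3.24 ± 1.52 in WT for Myh7 (SE; edgeR, adjusted p = 0.211 and 0.108), and -0.59 ± 0.71 and -1.02 ± 0.74 for Myh8 (adjusted p = 0.538 and 0.294). Myh7b had -1.84 ± 1.20 in KO and -2.34 ± 1.15 in WT (adjusted p = 0.245 and 0.124), and Myh3 had -0.12 ± 1.00 in KO (adjusted p = 0.940). The Myh3 counts of WT IP are at or under the floor of 3 counts per library. Myh7 was called in WT without WT total RNA library 1 (edgeR, adjusted p = 0.0392) or 2 (0.0439). Myh8 in KO was at -2.70 without KO IP library 1. With no filter on low counts, Myh7 and Myh7b were called in KO, and Myh3, Myh7, Myh7b and Myh8 in WT.

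Partners of myosin in the thick filament were lower in the IP as well. Of 8 listed genes 6 were tested, and 4 fell in KO (Mybph, Myom2, Mybpc1 and Mybpc2) and 5 in WT (these and Myom3), with medians of -1.82 and -1.89. Mybph, a relative of myosin-binding protein C, had log2 differences of -3.31 ± 0.28 in KO and -3.18 ± 0.28 in WT, and Myom2, the M-band protein M-protein, -2.26 ± 0.28 and -1.95 ± 0.27 (SE; edgeR, adjusted p = 0.000117 or lower). The Myom3 call was lost without WT IP library 2 (adjusted p = 0.0946). Of 12 fast-fibre genes, 7 fell in KO (median -1.24), while in WT 3 fell, Atp2a1, Tnnc2 and Mybpc2, and 1, Casq1, rose (median -0.11). The calcium pump gene Atp2a1 had -2.55 ± 0.38 in KO (adjusted p = 0.000217) and -1.56 ± 0.36 in WT (adjusted p = 0.00431), and the WT call was lost without WT IP library 1 (adjusted p = 0.0524). Without that library 0 of the 12 fell in WT, and without WT IP library 2 the Casq1 call was lost (adjusted p = 0.187). Without KO IP library 2 the count that fell in KO was 4.

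Among 30 regulators of fibre type, 13 fell in the IP in KO and 13 in WT, with medians of -0.62 and -0.60, where 18.8% and 19.4% of all genes were called lower. In KO 1 rose, Ppp3cb, a catalytic subunit of calcineurin (0.88 ± 0.20; SE, edgeR, adjusted p = 0.00335). In WT 2 rose, Ppp3cb (0.72 ± 0.20, adjusted p = 0.0104) and Maf (1.28 ± 0.26, adjusted p = 0.00178), and the Ppp3cb call was lost without WT IP library 2 (adjusted p = 0.135). Mafa, a large Maf factor that activates Myh4 in mouse, had log2 differences of -4.43 ± 0.44 in KO and -4.02 ± 0.42 in WT, and Sox6, a repressor of slow-fibre genes, -3.15 ± 0.34 and -2.90 ± 0.32. Eya4, a coactivator in fast-fibre gene expression, had -3.17 ± 0.40 in KO and -4.46 ± 0.43 in WT (SE, edgeR, adjusted p = 6.42e-05 or lower for these 6 values). Eya4 had 7 and 10 counts in KO IP and 5 and 3 in WT IP. Mafa had 4 and 5 counts in KO IP and 2 and 7 in WT IP, so both were near the floor of 3 counts there. Without KO IP library 2 the count of regulators that fell in KO was 8, and Eya4 was at -2.11. Of the non-sarcomeric relatives, Myh9, Myh10 and Myh14 fell in both genotypes, by 0.97 ± 0.22, 1.53 ± 0.38 and 1.20 ± 0.23 in KO and by 0.82 ± 0.22, 2.54 ± 0.41 and 0.92 ± 0.22 in WT (adjusted p = 0.00939 or lower). The KO call of Myh10 was lost without KO IP library 2 (adjusted p = 0.126), its WT value was -4.25 without WT IP library 1, and the WT call of Myh9 was lost without WT IP library 2 (adjusted p = 0.0680). With scaling by library size alone Myh9 and Myh10 were not called in KO (adjusted p = 0.108 and 0.0536). Myh11, the smooth muscle myosin, rose by 0.65 ± 0.20 in KO (adjusted p = 0.0191) and 0.68 ± 0.19 in WT (adjusted p = 0.0129), but its calls were lost in 5 fits without a library and with the replicate block in KO and in 2 fits without a library in WT.

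Long transcripts as a class were lower in the IP, and all 7 members have over 6 kb of exon. Genes with over 6 kb of exon had a median log2 difference of -0.21 in KO and -0.37 in WT, and 26.0% and 29.7% of them were called lower. Genes with up to 2 kb had medians of 0.29 and 0.45, and 13.1% and 9.28% of them were called lower. The part of length in the values of the members was not tested. With scaling by library size alone, the split of calls in KO was 4267 higher and 1439 lower, against 2551 and 2700 with TMM, and the calls of Myh1, Myh2 and Myh4 remained.

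The antibody was also used on KO muscle, so KO IP measures what is recovered there beside IMP2-bound RNA, as far as the protein is missing. In IP, 0 of 5 members tested were called between KO and WT, as were 0% of 10730 genes (edgeR). Of those genes 1128, or 10.5%, had an unadjusted p under 0.05. DESeq2 gave an adjusted p for 1369 genes, of which it called 57, and for 3 members, of which it called 0. Log2 differences of KO minus WT in IP were -0.22 ± 0.28 for Myh4, 0.06 ± 0.31 for Myh1, 0.14 ± 0.41 for Myh2, 0.95 ± 1.00 for Myh7 and 1.35 ± 0.82 for Myh8 (SE; edgeR, adjusted p = 0.577 or higher). Groups overlapped for each of the 5, where 41.1% of all genes tested had groups that did not overlap. KO IP library 1, the shallowest, was the higher KO IP library for all 7 members. Without it the differences were -0.70 for Myh1, -0.94 for Myh2, -1.79 for Myh7 and -0.95 for Myh8, and 0 were called.

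Myh3 and Myh7b did not pass the filter on low counts in the IP fit. Myh3 was at 35.5 and 1.45 CPM in KO IP, against 0 and 1.17 CPM in WT IP. It was called with no filter, and in the 3 fits without KO IP library 2, WT IP library 1 or WT IP library 2, all of which hold KO IP library 1. Each of these 3 fits leaves 1 genotype with 1 library, which is assumed to vary like the pair of the other genotype, so these calls are no check by replicates. The fast-fibre list had negative differences for 12 of 12 in IP, with a median of -0.33 and 0 called, and 3 and 4 of 12 were positive without KO IP library 2 and without WT IP library 2.

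The difference between the genotypes in IP relative to total RNA was tested in the same fit, and 0 of 7 members passed. Over all genes 1 of 14399 did (0.00694%), Prps1l3, and 1703 had an unadjusted p under 0.05 (edgeR). DESeq2 called 17 of the 10742 genes it gave an adjusted p. The KO minus WT difference of the log2 IP to total RNA difference was -0.71 ± 0.47 for Myh4, -0.04 ± 0.54 for Myh1 and 0.88 ± 0.53 for Myh2 (SE; edgeR, adjusted p = 0.523 or higher). Myh7, Myh8 and Myh7b had 0.66 ± 2.27, 0.42 ± 1.03 and 0.49 ± 1.78, and Myh3 had 3.06 ± 2.07, with adjusted p of 0.562 or higher.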

How the data were processed

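The deposited files give read counts per Ensembl gene for 10 mouse muscle libraries, and the values are whole numbers as the authors deposited them. Per the submitters' processing notes, reads were handled with STAR and HTSeq on the mm10 build, also called GRCm38; versions, annotation and strand setting are not given in the sources used here. Lines of reads with no gene, ambiguous reads and reads without a unique position were left out of library sizes; reads without a unique position were 26.1% to 43.3% of all reads. Gene names, positions and exon lengths came from GENCODE on GRCm38, and promoters from RefSeq.

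Counts were tested with edgeR 4.0.16 in R 4.3.3 (filterByExpr, TMM factors, quasi-likelihood F test, two-sided), with Benjamini-Hochberg adjustment over all genes tested and a threshold of 0.05. KO was set against WT in the 6 total RNA libraries and in the 4 IP libraries; IP was set against total RNA, and the difference between genotypes tested, in 1 fit of all 10. CPM in the text are scaled by the TMM factors of the fit of all 10 libraries. Shares of the adult myosins were compared with an exact permutation test over libraries. Likeness was the root mean square distance of centred log2 CPM (prior count 2) over the 6 total RNA libraries. The fits were also run on counts simulated from their own means and spread. Such counts hold no library that stands apart, unlike these data, so that run does not check the results given here. DESeq2 1.42.0, other scalings, no filter, a replicate block and fits without a library were the alternatives.

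The members and gene lists were chosen with earlier results of these data known. The text names the 7 members, up to 4 genes of each list with the smallest p in a comparison, and the 5 genes nearest to each member. It also names the targeted gene, and genes called where a count is 5 or fewer. Differences of 9430073C21Rik and Myhas, and Casq2, Myoz2, Pln and the markers of muscle cell types, were added after their values were seen. No 2 libraries held identical values.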

Additional observations from a re-analysis of the deposited data

How the results depend on the processing

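Of 463 alternative values for the members, 416 kept the direction and the side of the threshold, 9 passed the threshold newly and 38 changed sign. The cause was not tested. Myh3 and Myh7b in KO minus WT of IP, which the main fit did not test, are left out of these counts. Values to which DESeq2 gave no adjusted p were counted as not called. Of 69 alternative counts of genes called, 24 moved by over 1.5 times, or to or from 0. The ranges that follow also hold counts that moved less, among them those of IP minus total RNA in WT. For KO minus WT in total RNA, where 0 were called, no filter gave 64 and DESeq2 5, and fits without a library gave 0. For KO minus WT in IP, with 0 called, library size alone gave 1 (Neat1), no filter 103, DESeq2 57, the replicate block 28, and fits without a library 13 to 146, with the lone library of a genotype assumed to vary like the pair of the other. For IP minus total RNA in KO (5251), fits without a library gave 2148 (without KO IP library 2) to 5706, and in WT (5325) 3765 to 5475. For the interaction (1), no filter gave 263, DESeq2 17, library size alone 0, the replicate block 0, and fits without a library 0 or 1. Library size alone moved the median log2 difference of all genes to -0.23 in total RNA, 0.16 in IP, 0.47 for IP minus total RNA in KO and 0.40 for the interaction.

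Signs changed for uncalled members. In KO minus WT of total RNA, Myh1 was at -0.10 with library size alone, -0.11 without libraries 3 of both genotypes and -0.10 to 0.45 without a library. Myh7 was at 0.41 with the replicate block, 0.86 without libraries 3 of both genotypes and -1.73 to 2.43 without a library, and Myh7b at 1.28 and -1.90 to 0.85 for the last of these. In IP, KO minus WT with the replicate block was -0.065 for Myh1 and -0.0085 for Myh2. Without a library it was -0.70 to 0.57 for Myh1, -0.94 to 0.85 for Myh2, -0.53 to 0.024 for Myh4, -1.79 to 2.13 for Myh7 and -0.95 to 2.44 for Myh8. For IP minus total RNA in KO, Myh3 was at 0.38 with library size alone, 0.24 with DESeq2 and -3.37 to 1.23 without a library, and Myh8 at -2.70 to 0.68 without a library. The interaction of Myh1 was 0.29 with library size alone and -0.79 to 0.45 without a library, and that of Myh7b -0.018 with the replicate block and -0.86 to 1.86 without a library. The others without a library ran -0.20 to 1.56 for Myh2, -0.17 to 8.31 for Myh3, -1.97 to 2.29 for Myh7 and -1.67 to 1.71 for Myh8. The difference in share of Myh7 was 0.0254 at the highest and -0.0639 at the lowest without a library, and 0.00399 without libraries 3 of both genotypes.

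By their titles, same-numbered libraries share only a number. Deviations of same-numbered KO and WT libraries from their group means correlated at 0.0914, -0.109 and -0.296 in total RNA and -0.0469 in IP. Between total RNA libraries of unlike number they ran from -0.318 (KO library 2 with WT library 1) to 0.349 (KO library 2 with WT library 3). Those of IP and total RNA correlated at 0.126 and 0.1495 in KO and 0.107 and 0.0947 in WT (numbers 1 and 2). In the pairs with IP libraries, crossing numbers 1 and 2 gave the same values with the sign turned, since deviations of 2 libraries from their mean mirror each other. These values cannot tell whether IP and total RNA libraries were paired. With the block, the calls of Myh1, Myh2 and Myh4 between IP and total RNA and the lack of calls between KO and WT were the same. The IP depth of 917462 to 4037480 counts limits the members at low level.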
